A study of Mus musculus with 12 samples.

Results

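The ATAC-seq peak lists of ER-Hoxa9 Lys-GFP cells deprived of estradiol (E2) for 24 h and for 40 h, in both cases followed by return of E2, were compared peak by peak. Of the 11465 peaks after 24 h of withdrawal, 2642 had no overlap of even 1 base with a peak after 40 h and are termed 24h-only. Of the 9940 peaks after 40 h, 1111 had no overlap with a 24 h peak and are termed 40h-only. The other 8823 peaks of the 24 h list and 8829 of the 40 h list are termed shared. Together the pair of lists covered 12575 separate regions of the 16028 found in all 6 lists of the series.

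The series held 12 libraries of this C57BL/6 mouse line, in 6 groups of 2, with 1 peak list deposited for each group. All cells grew in RPMI with serum, antibiotics and medium conditioned with stem cell factor. The 24 h group then had E2 back for 96 h, and the 40 h group for 80 h. The other lists came from cells kept in E2, from cells without E2 for 56 h and then 64 h with it, from cells without E2 for 72 h and then 48 h with it, and from cells without E2 for 120 h. Add-back shortened as withdrawal lengthened, and the effects of one and the other cannot be told apart. Each list stands for its own treatment. Calls or widths lost or regained between lists are therefore differences between groups, not changes followed in the same cells. Nuclei of each sample were split into a pair of transposition reactions per the labels, which do not say whether the numbered libraries came from separate cultures. The lists held no score, depth or replicate value, so no test between samples was possible, and the 95% Wilson intervals given here cover counting error over regions only. In a list made from many cells, fewer cells with an open site and a less open site in each cell cannot be told apart.

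ATAC-seq marks DNA that the transposase Tn5 can reach, mostly promoters and enhancers free of nucleosomes. Hoxa9 is a homeodomain factor that binds DNA with PBX and MEIS partners and holds myeloid progenitors in an immature, dividing state. When it is fused to the hormone-binding part of the estrogen receptor it works only while E2 is present, and on E2 withdrawal such cells leave the progenitor state and mature towards neutrophils. Peaks shared by the 24 h and 40 h lists lay at the start or end of the progenitor genes Kit, Myb, Meis1 and Flt3 and of Spi1, the gene of the ETS factor PU.1. No region was assigned to Hoxa9 itself or to Lyz2, the lysozyme gene of mature myeloid cells.

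Of the genes in lists of known function, 5 whose start lay wholly under a peak of one list only are shown by sequence, because they stand for both directions of the comparison. Mycn and Cebpa, genes of a MYC-family factor and of the C/EBP factor of early granulocyte precursors, and Bmi1, a Polycomb gene, had a 24h-only peak. Mcm3, a subunit of the replicative helicase, and E2f3, a factor of S-phase entry, had a 40h-only peak. Each line holds the 300-base RefSeq window from 250 bases before to 50 after the gene start (GRCm38.p6), read along the gene's strand. Capitals mark 1 motif in each window, the MEIS letters TGACAG in Mycn, the E-box CACGTG in Bmi1 and CCAAT on either strand in Mcm3 and E2f3; other motifs are left in lower case. Cebpa held none of the 9 motifs searched and has no capitals.
Mycn, chr12:12941787-12942086, minus strand: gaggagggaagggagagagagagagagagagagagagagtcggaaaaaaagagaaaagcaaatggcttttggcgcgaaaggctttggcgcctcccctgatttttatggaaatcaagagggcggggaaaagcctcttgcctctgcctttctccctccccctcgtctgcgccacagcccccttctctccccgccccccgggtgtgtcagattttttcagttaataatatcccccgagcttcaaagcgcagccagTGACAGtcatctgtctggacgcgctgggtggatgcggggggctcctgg
Cebpa, chr7:35119043-35119342, plus strand: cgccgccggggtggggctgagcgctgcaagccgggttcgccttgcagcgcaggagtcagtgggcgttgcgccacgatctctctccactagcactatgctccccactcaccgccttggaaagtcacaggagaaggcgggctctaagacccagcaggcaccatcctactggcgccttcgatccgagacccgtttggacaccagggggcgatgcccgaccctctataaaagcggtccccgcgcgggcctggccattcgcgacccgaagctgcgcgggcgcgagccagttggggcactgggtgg
Bmi1, chr2:18676768-18677067, plus strand: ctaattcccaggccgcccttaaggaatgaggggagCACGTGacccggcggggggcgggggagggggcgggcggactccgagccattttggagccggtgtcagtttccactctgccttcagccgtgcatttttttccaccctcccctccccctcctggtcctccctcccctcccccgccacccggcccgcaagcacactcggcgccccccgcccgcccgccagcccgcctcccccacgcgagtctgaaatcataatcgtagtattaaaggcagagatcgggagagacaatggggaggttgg
Mcm3, chr1:20820263-20820562, minus strand: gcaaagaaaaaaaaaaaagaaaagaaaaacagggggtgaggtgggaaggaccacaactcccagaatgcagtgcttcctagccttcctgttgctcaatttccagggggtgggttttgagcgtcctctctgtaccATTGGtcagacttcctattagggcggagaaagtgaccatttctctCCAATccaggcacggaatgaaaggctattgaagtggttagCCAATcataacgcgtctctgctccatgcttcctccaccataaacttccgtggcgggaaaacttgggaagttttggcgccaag
E2f3, chr13:29986014-29986313, minus strand: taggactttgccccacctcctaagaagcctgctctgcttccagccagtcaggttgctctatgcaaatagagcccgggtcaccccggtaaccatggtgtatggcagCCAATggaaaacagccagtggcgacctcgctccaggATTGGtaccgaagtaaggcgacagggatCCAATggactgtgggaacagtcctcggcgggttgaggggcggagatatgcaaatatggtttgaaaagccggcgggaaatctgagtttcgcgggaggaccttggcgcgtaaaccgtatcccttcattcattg

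At Mycn the peak was 1243 bases wide in continuous E2 and 1035 bases after 24 h (chromosome 12, 12941584 to 12942618), and none was called there in the 40, 56, 72 and 120 h lists. At Cebpa the peak was 1616 bases wide in continuous E2, 1325 after 24 h (chromosome 7, 35118357 to 35119681) and 754 after 72 h, with none after 40, 56 or 120 h. The Cebpa call was therefore missing after 40 h but present again in the 72 h list. At Bmi1 the widths were 1088, 1018, 786 and 642 bases in the lists of continuous E2, 24, 56 and 72 h. Mcm3 and E2f3 had no peak in continuous E2 or after 24 h. A missing call does not show that the DNA there was closed. No peak of the 24 h or 40 h list was assigned to the housekeeping genes Gapdh, B2m and Sdha either. The Mcm3 peak (chromosome 1, 20820053 to 20820677) measured 625, 560, 637 and 579 bases after 40, 56, 72 and 120 h, and that of E2f3 (chromosome 13, 29985978 to 29986663) 686, 652, 615 and 571 bases.

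Unpartnered peaks made up 23.0% of the 24 h list (95% Wilson interval 22.3 to 23.8) and 11.2% of the 40 h list (10.6 to 11.8). Peaks of both lists thus overlapped in most cases, and the unpartnered ones were more numerous after 24 h. The split left few borderline cases. The smallest overlap of a shared pair was 165 bases, 26 of 8830 pairs overlapped by less than 200 bases, and every pair shared at least 49.5% of its narrower peak. Just outside the threshold, the unpartnered peak nearest to a peak of the other list lay 424 bases from it, and 14 of the 24h-only and 6 of the 40h-only peaks lay within 1000 bases of one. The median distances were 39726.5 bases for 24h-only and 29727 bases for 40h-only peaks. With both lists cut to their 9940 widest peaks, the shares were 18.7% and 18.6%; lists of one length must give nearly the same share in both directions.

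The lists the rule did not use showed where the unpartnered regions were called at other durations. Of the 24h-only regions, 79.3% (77.7 to 80.8) were called in continuous E2. They were called in 21.8% of cases after 56 h, 24.8% after 72 h and 16.8% at 120 h. Of the 40h-only regions, 58.9% (55.9 to 61.7) were called in continuous E2, 60.0% after 56 h, 66.9% after 72 h and 47.2% (44.2 to 50.1) at 120 h. The 24h-only regions were therefore called in continuous E2 more often, and in each list of longer withdrawal less often, than the 40h-only regions, with intervals that did not overlap. Shared regions were called more often than both, in 92.6% of cases in continuous E2 and in 68.5% to 83.0% in the other lists. List lengths differ, from 13165 peaks in continuous E2 to 7987 at 120 h, and the part of list length in these shares was not tested. With the 24 h and 40 h lists cut to equal length, the E2 share of 24h-only regions was 79.8% and the 120 h share of 40h-only regions 46.4%. That cut left the continuous E2 and 120 h lists whole. It also turned shared 40 h peaks with a narrow 24 h partner into 40h-only ones. These values therefore do not show the part of list length.

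The difference was wider away from gene boundaries, meaning over 1000 bases from the start and end of every protein-coding gene. Only the outermost start and end of a gene counted, so some promoters lie away from boundaries. Away from boundaries, 80.5% of the 24h-only regions were called in continuous E2 and 11.7%, 13.7% and 10.1% after 56, 72 and 120 h. At gene boundaries the corresponding shares were 76.6%, 44.3%, 49.6% and 31.7%. The 40h-only regions at boundaries were called in 61.3%, 73.4%, 77.2% and 56.7% of cases in the same order, and those away from boundaries in 56.1%, 45%, 55.3% and 36.5%.

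**Figure D1:**
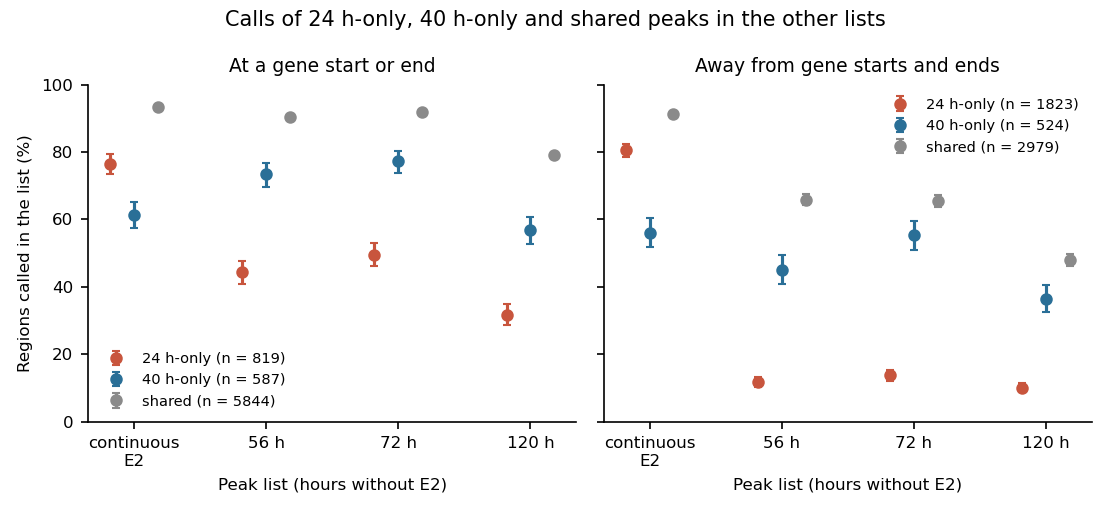
Share of regions (percent, vertical axis) called in the other 4 lists (horizontal axis), for 24h-only, 40h-only and shared regions at gene boundaries (left) and away from them (right), with 95% Wilson intervals. Away from boundaries, 24h-only regions are at 80.5% in continuous E2 and at 10.1% to 13.7% in the lists of longer withdrawal.

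By pattern, 1402 of the 2642 24h-only regions (53.1%) were called in continuous E2 and in no list of longer withdrawal, and 16.8% of these lay at a gene boundary. A further 692 (26.2%) were called in continuous E2 and in at least 1 longer withdrawal, 184 (6.96%) in a longer withdrawal and not in E2, and 364 (13.8%) in no other list. Of the 1111 40h-only regions, 153 (13.8%) were called in continuous E2 and in no longer withdrawal, 501 (45.1%) in E2 and a longer withdrawal, 360 (32.4%) in a longer withdrawal and not in E2, and 97 (8.73%) in no other list. Regions called in every list but 1 numbered 224 for a gap at 40 h and 236 for a gap at 24 h, and 71.0% and 73.3% of them lay at gene boundaries. Regions first called at 40 h and called in all 3 longer withdrawals numbered 172, and 58.1% lay at boundaries.

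Shared peaks lay at genes more often than unpartnered ones. Gene boundaries held 31.0% (29.3 to 32.8) of the 24h-only, 52.8% (49.9 to 55.8) of the 40h-only and 66.2% (65.2 to 67.2) of the shared peaks of the 24 h list. Inside a gene but away from its boundaries lay 36.1%, 23.7% and 18.8%, and outside genes 32.9%, 23.5% and 15%. No protein-coding gene lay within 50000 bases of 11.2% of the 24h-only, 8.01% of the 40h-only and 4.70% of the shared peaks. Read the other way, 38.0% of 24 h peaks away from boundaries had no 40 h partner, against 12.3% of those at boundaries. For 40 h peaks these shares were 14.9% and 9.14%. With both lists cut to their 9940 widest peaks, the 24h-only and 40h-only shares at boundaries were 39.2% and 42.0%. With peaks of at least 400 bases they were 35.2% and 59.7%. The cut to equal length removes narrow 24 h peaks alone, so the part of list length itself was not tested.

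Over RefSeq promoter windows, which carry strand, lay 26.2% of the 24h-only, 43.5% of the 40h-only and 58.6% of the shared peaks of the 24 h list. On single chromosomes other than Y, which held 1 peak after 40 h and 0 after 24 h, the 24h-only share ranged from 19% of the 24 h peaks on X to 28.0% on chromosome 12, and the 40h-only share from 9.22% of the 40 h peaks on chromosome 6 to 16.5% on X. Of the chromosomes other than Y, X thus had the lowest 24h-only share (14.7 to 24.1) and the highest 40h-only share (12.5 to 21.5). The first interval includes the 23.0% of the whole 24 h list, and the second lies above the 11.2% of the 40 h list. Neither interval allows for the choice of the extreme among the chromosomes. Of 977 neighbouring pairs within 10000 bases in the 24 h list, 60 were both without a partner, 332 had 1 such peak and 585 none. In the 40 h list the numbers were 10, 170 and 589 of 769 pairs.

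Over all positions, unpartnered peaks were narrower than shared ones. The 24h-only peaks had a median width of 611.5 bases (quartiles 443 and 872), against 802 bases for shared peaks in the same list. The 40h-only peaks had a median of 639 bases (430 and 875), against 701 for shared peaks after 40 h. At gene boundaries the medians were 823 and 853 bases for 24h-only and shared peaks, and 760 and 755 bases for 40h-only and shared peaks. Away from boundaries they were 544 against 682 and 481 against 585.5 bases. The order of the 24h-only and 40h-only medians was not stable. It turned with lists of equal length, to 748.5 and 456 bases, and with 50% reciprocal overlap as the rule for a partner, to 621 and 610 bases.

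Of the 8814 shared pairs that matched 1 to 1, 7267 (82.4%, 81.6 to 83.2) were narrower after 40 h, 1479 wider and 68 equal. The median change was -86 bases (quartiles -169 and -20), -92 at gene boundaries and -72 away from them. The centres of paired peaks lay a median of 34 bases apart. Set against the E2 peak they overlapped, shared peaks differed in width by medians of -72 bases after 24 h and -174 bases after 40 h. For unpartnered peaks these medians were -87 bases (24h-only) and -194.5 bases (40h-only), over the 2094 and 654 regions of these classes called in E2, which are different regions. No sequencing depth came with the lists, and its part in these widths was not tested.

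**Figure D2:**
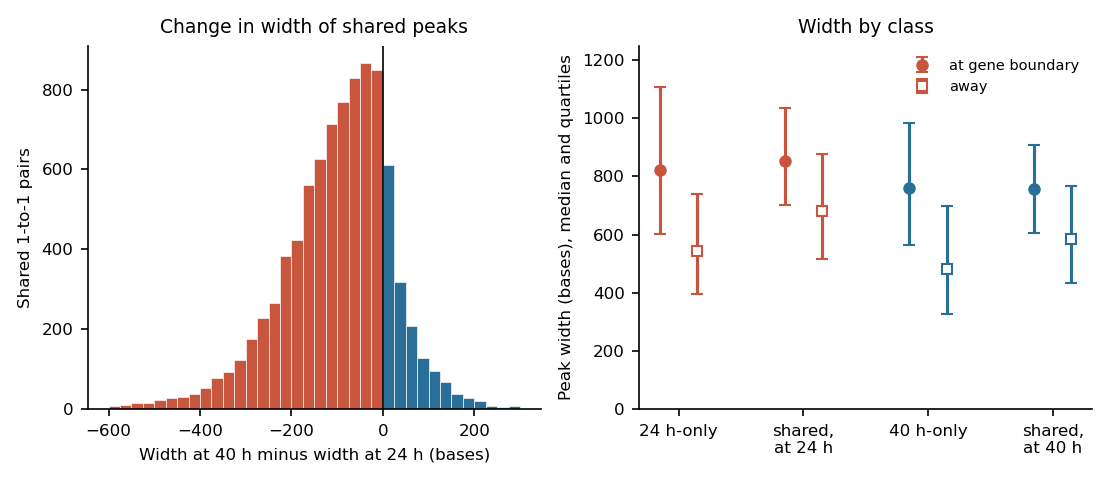
Left, number of shared 1-to-1 pairs (vertical axis) by width after 40 h minus width after 24 h (bases, in bins of 25), with red bins for narrower and blue bins for equal or wider peaks after 40 h; 72 pairs lie outside the plotted range. Right, median width with quartiles of each class at gene boundaries (filled) and away from them (open); the median change of pairs is -86 bases, and the narrowest class is 40h-only away from boundaries, at 481 bases.

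Width did not separate partnered from unpartnered peaks completely. In the narrowest of 10 width classes of the 24 h list, 34.4% of the peaks at gene boundaries and 57.8% of those away from them had no partner. The shares were lowest in class 8 at boundaries, 7.35%, and in class 9 away from them, 24.9%. In the widest class they were 17.8% and 34.5%, so wide 24 h peaks were also among those not called after 40 h. In the 40 h list the shares were 24.2% and 24.8% in the narrowest class and 13.3% and 16.6% in the widest.

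**Figure D3:**
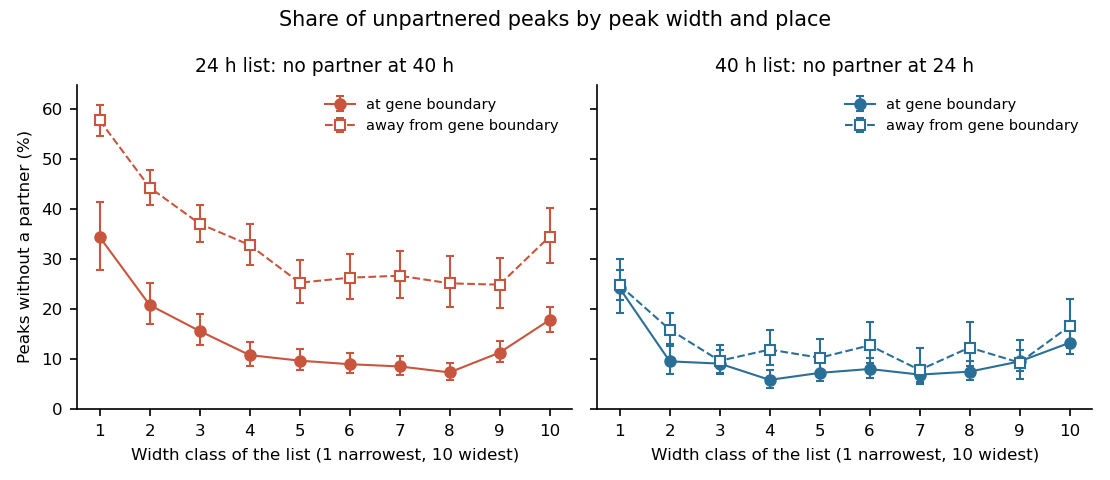
Share of peaks without a partner (percent, vertical axis) by width class of the list (1 narrowest, 10 widest), for the 24 h list (left) and the 40 h list (right), at gene boundaries (filled circles) and away from them (open squares), with 95% Wilson intervals. In the 24 h list the share is higher away from boundaries in all 10 classes.

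Peaks were assigned to the protein-coding gene they overlapped or else to the nearest within 50000 bases. Of the assigned peaks, 2347 of 10755 after 24 h had no partner (21.8%), as did 1022 of 9435 after 40 h (10.8%). Each gene list below is read against these shares, which mix peaks at and away from gene boundaries. Of all 24 h peaks, 12.3% at boundaries and 38.0% away from them had no partner. The lists differ in how many of their peaks lie at boundaries, and the part of place in their shares was not tested. The 24h-only peaks belonged to 2090 genes and the 40h-only peaks to 996, of which 163 had both. Peaks after 24 h and none after 40 h were found at 1234 genes, and the reverse at 666. The 16 lists held 373 genes, 372 of them in the gene table, with 91 24h-only peaks at 76 genes and 35 40h-only peaks at 35 genes. Of the 91, 78 were called in continuous E2 and 49 in continuous E2 with no longer withdrawal. Of the 35, 17 were called in continuous E2, 24 after 56 h and 24 after 72 h. Peaks of one gene are not independent, and several genes stand in more than 1 list.

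**Figure D4:**
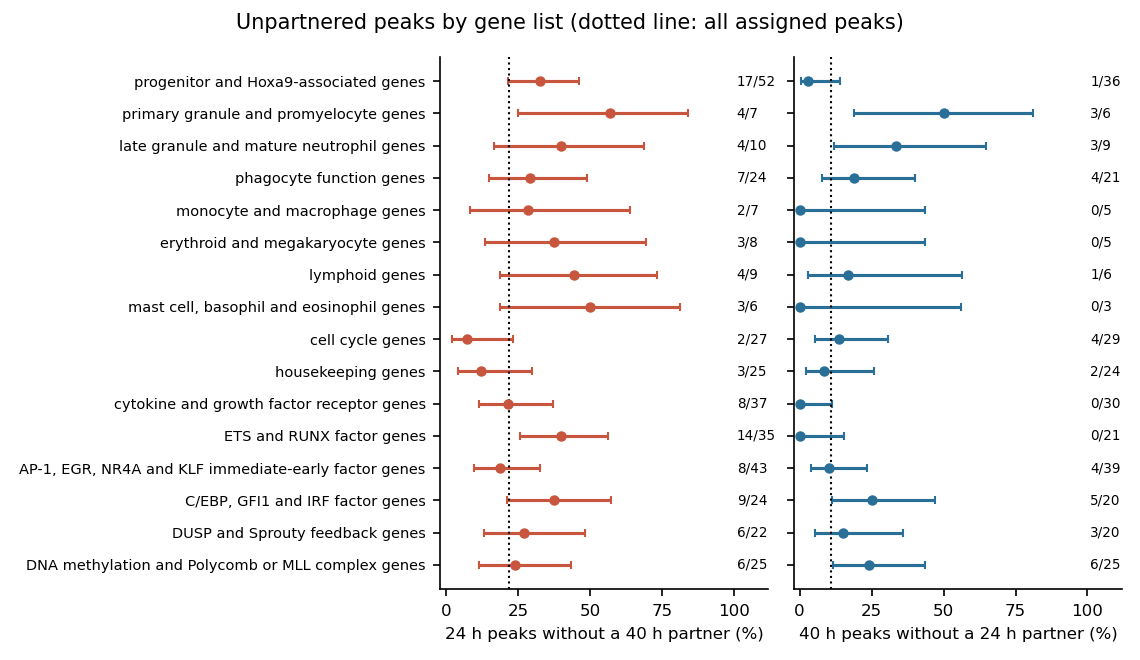
Share of peaks without a partner (percent, horizontal axis) for 16 gene lists, in the 24 h list (left) and the 40 h list (right), with 95% Wilson intervals and the counts at the right edge; dotted lines mark the shares of all assigned peaks, 21.8% and 10.8%. Progenitor genes have 17 of 52 and 1 of 36 peaks without a partner, cell cycle genes 2 of 27 and 4 of 29.

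Genes of the progenitor state and of Hoxa9 partners had 17 24h-only peaks among 52 after 24 h (32.7%, 21.5 to 46.2). They had 1 40h-only peak among 36 after 40 h (2.78%, 0.49 to 14.2). These intervals include the shares of all assigned peaks, 21.8% and 10.8%. Of the 17, 10 were called in continuous E2 and in no longer withdrawal, and 5 lay at a gene boundary. Meis1, the Hox cofactor, had a 24h-only peak inside the gene (chromosome 11, 18883601 to 18884280), 857 bases wide in continuous E2 and 680 after 24 h. The shared peak at its boundary measured 2306, 2229 and 954 bases in continuous E2, after 24 h and after 40 h, and was not called in the later lists. At Meis1 this peak was thus narrower in the 40 h list than in the 24 h list by far more than the median change. Flt3, a progenitor cytokine receptor, had a 24h-only peak inside the gene of 519 bases, while its boundary peak measured 1420, 1172 and 817 bases in continuous E2, after 24 h and after 40 h and was absent from the later lists.

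Lmo2, an adaptor of blood transcription complexes, had peaks after 24 h and none after 40 h. Its 24h-only peaks measured 1145 bases (11849 bases outside the gene) and 1249 bases (inside it), against 1245 and 1480 bases in continuous E2, and the second was called again after 72 h at 807 bases. Lyl1 and Tal1, related helix-loop-helix factor genes, had boundary peaks of 554 and 952 bases after 24 h and none there after 40 h. Both were called again after 56 and 72 h, so these 2 regions were missing from the 40 h list between lists that held them. Runx1 had a 24h-only boundary peak of 718 bases, which was called in every list but that of 40 h. Bcl2, a survival gene, had 24h-only peaks of 515 and 537 bases called otherwise in continuous E2 alone. The same pattern held for those of Erg (783 bases), an ETS factor, and Sox4 (737 bases). Cd34, a progenitor surface marker, had 3 shared peaks and a 24h-only peak of 383 bases that lay 33869 bases outside the gene. This 24h-only region was called again at 120 h, at 238 bases. Camk2d had 2 24h-only peaks. Kit and Myb had 1 shared boundary peak each, of 1193 and 1191 bases for Kit and 1041 and 1005 bases for Myb after 24 and 40 h. Myc had both classes, a boundary peak of 824 bases after 24 h that was missing after 40 h and called after 56 and 72 h, and a 40h-only peak of 222 bases that lay 1715 bases from the gene. Cdk6 had 5 peaks after 24 h, all of them shared.

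ETS and RUNX factor genes had 14 24h-only peaks among 35 (40.0%, 25.6 to 56.4), the largest number after the progenitor list. None of their 21 peaks after 40 h was 40h-only, which allows a share of up to 14.3% if set at 3 counts and of up to 15.5% by the Wilson interval. Of the 14, 8 were called in continuous E2 and in no longer withdrawal and 1 lay at a gene boundary. The 24h-only peaks of Elf2 (1576 bases) and Runx3 (603 bases) lay away from boundaries but over a RefSeq promoter window of the gene. Spi1 had a 24h-only peak of 502 bases inside the gene (chromosome 2, 91096474 to 91096975), 791 bases wide in continuous E2, while its boundary peak was called in all 6 lists. Spib, a close relative of Spi1, had a 24h-only peak of 635 bases. Elk3 had 24h-only peaks of 348 and 1364 bases and Cbfa2t3, a corepressor gene, had 282 and 781 bases. Erg and Runx1 are also in the progenitor list.

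Cytokine and growth factor receptor genes had 8 24h-only peaks among 37 (21.6%) and none 40h-only among 30, which allows up to 10.0% if set at 3 counts and 11.4% by the Wilson interval. The 24h-only share was close to the 21.8% of all assigned peaks. Csf2ra, a chain of the GM-CSF receptor, had a boundary peak of 1414 bases after 24 h that was called in continuous E2, after 72 h and at 120 h and not after 40 or 56 h. Csf1r, the M-CSF receptor, had a 24h-only peak of 982 bases inside the gene, 978 bases wide in continuous E2 and called in no longer withdrawal. The remaining ones were assigned to Ifngr1, Ifnar1, Tgfbr2, Tnfrsf1b, Il10rb and Flt3, none of them at a gene boundary.

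C/EBP, GFI1 and IRF factor genes had 9 24h-only peaks among 24 (37.5%, 21.2 to 57.3) and 5 40h-only among 20 (25%, 11.2 to 46.9). Besides the Cebpa boundary peak, the 24h-only peaks included that of Gfi1, a repressor needed for neutrophil formation, which measured 777, 812, 764 and 693 bases in continuous E2 and after 24, 72 and 120 h and lay 17285 bases from the gene. Irf2bp2 had 24h-only peaks of 783 and 972 bases and Irf2 of 840 and 416 bases. Irf8, a monocyte factor gene, had only its shared boundary peak, of 672 and 477 bases. The 40h-only peaks included a boundary peak of Id1, an inhibitor of helix-loop-helix factors, of 718 bases, called in all longer withdrawals and not in E2. Cebpe, the C/EBP factor of late granulocyte precursors, had a 40h-only peak of 207 bases, 4247 bases from the gene, that was 658 bases wide in continuous E2 and 439 after 56 h. Others, away from gene boundaries, were assigned to Id3, Irf1 and again Irf2, which had both classes. With assignment within 100000 bases this list had 8 40h-only peaks.

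Genes of granules and mature neutrophils had few peaks. Primary granule and promyelocyte genes had 4 24h-only among 7 and 3 40h-only among 6, with Prtn3, a granule protease gene, in the first class (918 bases) and Ctsg, another, in the second (717 bases). The Ctsg region was also called in continuous E2 (895 bases) and after 56 h (857 bases). Srgn, the granule proteoglycan gene, had both classes, a 24h-only peak of 555 and a 40h-only peak of 347 bases. Mpo, the myeloperoxidase gene, had a shared boundary peak of 696 and 662 bases. Late granule and mature neutrophil genes had 4 24h-only among 10, assigned to Cxcr4, Anxa1, Ltf and Cebpb, and 3 40h-only among 9. Of the 24h-only ones, that of Cxcr4 alone lay at a gene boundary, and that of Anxa1 lay 27578 bases outside the gene. The 40h-only ones were narrow, with 242 bases near Lyz1, the lysozyme gene next to Lyz2, 230 near Itgam, the CD11b integrin gene, and 265 at the boundary of Trem1. That of Lyz1 was called again after 72 h and at 120 h, and that of Itgam after 56 h, and neither was called in continuous E2. That of Trem1 was wider in continuous E2, at 611 bases, and measured 202 bases after 56 h. Assignment within 100000 bases gave 5 40h-only peaks for this list.

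Phagocyte function genes had 7 24h-only among 24 and 4 40h-only among 21. In the first class were boundary peaks of Lyn (1048 bases) and Syk (740 bases), kinases of immune receptor signalling, and of their adaptor Tyrobp (949 bases). Among the second were Itgb2, the partner chain of CD11b (269 bases), Tlr4, the endotoxin receptor (855 bases), and Cd33 (463 bases). The peaks of Tlr4 and Cd33 were not called in continuous E2. Monocyte and macrophage genes had 2 24h-only peaks among 7, at Csf1r and Lgals3, and none 40h-only among 5. Genes of other lineages had small counts in the 24 h list, with 3 of 8 24h-only for erythroid and megakaryocyte, 4 of 9 for lymphoid and 3 of 6 for mast cell, basophil and eosinophil genes. In the 40 h list these lists had 0 of 5, 1 of 6 and 0 of 3, and with such counts the intervals of the shares were wide.

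Cell cycle genes were the list with the fewest 24h-only peaks relative to all, 2 of 27 (7.41%, 2.06 to 23.4), and had 4 40h-only peaks of 29 (13.8%, 5.50 to 30.6). These intervals include the 21.8% and 10.8% of all assigned peaks. The first does not allow for the choice of the lowest of 16 lists. All 4 40h-only peaks lay at a gene boundary, none was called in continuous E2 and all were called after 56 and 72 h. Besides Mcm3 and E2f3 they lay at Rb1, the pocket protein that restrains E2F factors, with 836, 652 and 546 bases after 40, 56 and 72 h, and at Aurkb, a mitotic kinase, with 348, 165 and 254 bases. The 24h-only peaks, away from gene boundaries, were assigned to Ccnd3, a D-type cyclin, and Cdkn2c, an inhibitor of its kinase. Housekeeping genes had 3 24h-only of 25 (12%) and 2 40h-only of 24 (8.33%), assigned to Vcp, Gpi1, Chmp2a and Ywhaz.

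Genes of DNA methylation and of Polycomb or MLL complexes had 6 24h-only among 25 and 6 40h-only among 25 (24.0% each), so their 40h-only share lay above the 10.8% of all assigned peaks, with an interval of 11.5 to 43.4. The interval does not allow for the reading of 16 lists. Intervals of the 40h-only share above 10.8% were also those of the C/EBP, GFI1 and IRF, primary granule and late granule lists. At their boundaries, Tet2, an oxidase of methylcytosine, had a 24h-only peak (1288 bases) and Tet3 a 40h-only peak (1021 bases), the latter called in no other list; Tet3 also had a narrow 24h-only peak of 436 bases inside the gene. Among Polycomb genes, Bmi1 and Asxl2 (1660 bases) had a 24h-only boundary peak, and Ezh1 (502 bases) and Ezh2 (1246 bases), the histone methyltransferases, a 40h-only one. The Ezh2 region was 1642 bases wide in continuous E2, whereas that of Ezh1 was not called there. Dnmt3b, a DNA methyltransferase of new methylation, had a 40h-only boundary peak of 868 bases, with 471 and 503 bases after 56 and 72 h and none in continuous E2. Kmt2d, of the MLL family, had both classes, a 24h-only peak of 1014 bases inside the gene and a 40h-only boundary peak of 875 bases. The latter region was 1215 bases wide in continuous E2.

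Immediate-early factor genes had 8 24h-only peaks among 43 (18.6%) and 4 40h-only among 39 (10.3%), both close to all assigned peaks. Klf13 held 3 of the 24h-only peaks, including a boundary peak of 2535 bases that was not called in continuous E2 and measured 2258 and 1037 bases after 56 and 72 h. Fosl2, an AP-1 gene, had 24h-only peaks of 609 and 1365 bases. Nr4a2, an orphan nuclear receptor gene, had a 40h-only boundary peak of 981 bases that was 1118 bases wide in continuous E2. The others were assigned to Ier5 (790 bases), Klf7 (617 bases) and Junb (449 bases), that of Ier5 alone at a gene boundary. DUSP and Sprouty feedback genes, whose products restrain ERK signalling, had 6 24h-only among 22 and 3 40h-only among 20. Spred1 (1593 bases), Spred2 (1123 bases) and Spry2 (645 and 815 bases) had 24h-only peaks, and Dusp6 had both, 831 bases at its boundary after 24 h and 939 bases at a distance of 20584 bases after 40 h. Spred2 kept another boundary peak, which was shared and measured 504 and 442 bases after 24 and 40 h. Both Spred2 boundary peaks overlapped a single peak of 2440 bases in continuous E2. With assignment within 20000 bases, 1 40h-only peak was left for this list and 1 for housekeeping genes.

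**Figure D5:**
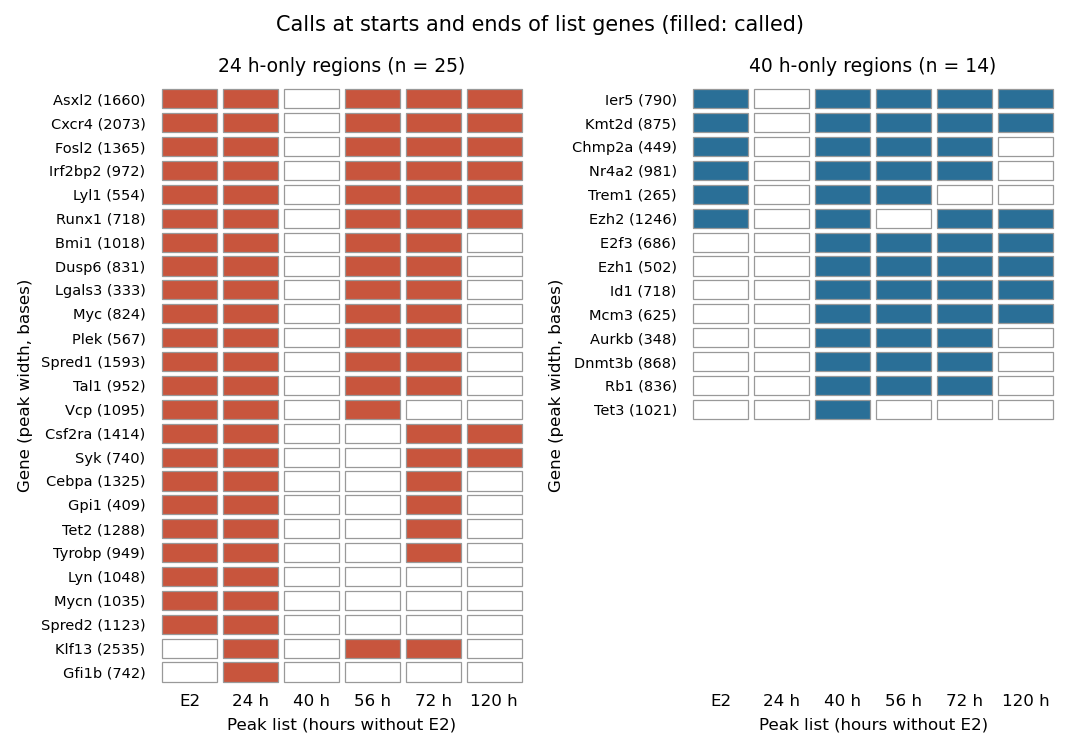
Calls in the 6 peak lists (horizontal axis, filled where a peak was called) of the 25 24h-only (left) and 14 40h-only (right) regions at starts or ends of the list genes, with the peak width in bases after the gene name. Mycn, Lyn and Spred2 are filled in continuous E2 and 24 h only, and Mcm3, E2f3, Ezh1 and Id1 from 40 h on. A shared boundary peak of Spred2 is not drawn.

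Over all genes, Usp6nl, Rnf220 and 2900026A02Rik had the most 24h-only peaks, 4 each, and Gse1, Klf13, Trappc9, Cxxc5, Nedd4l, Smarca2, Ggta1, Ttc7 and Rapgef4 had 3 each. In all, 28 genes had 3 or more, and those named are the ones with the largest summed width among the tied genes. Of the 39 24h-only peaks of these 12 genes, 32 lay inside a gene, 3 at a gene boundary, and 21 were called in continuous E2 and in no longer withdrawal. Those of 2900026A02Rik, between 475 and 725 bases wide, all had that pattern. Pcdh7, Col15a1 and Ksr1 had the most 40h-only peaks, 3 each, followed by M1ap, Gm41291, Cpeb2, Wsb1, Pacsin2, Abcc4 and Mga with 2. In all, 23 genes had 2 or more, and ties were again settled by summed width. Of the 23 40h-only peaks of these 10 genes, 11 were called in a longer withdrawal and not in continuous E2. At Pcdh7, a protocadherin gene, the pair of 40h-only boundary peaks of 1403 and 1245 bases lay under a single peak of 4261 bases in continuous E2. Ggta1, Gse1, Col15a1 and Ksr1 had peaks of both classes.

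The widest 24h-only peak (chromosome 17, 39843159 to 39846686, 3528 bases) had no protein-coding gene within 50000 bases and was also called in continuous E2 and at 120 h. It was followed by peaks of Arhgef18, Klf13, Jade1 and Rbpj, the gene of the Notch pathway's DNA-binding factor, of 2724, 2535, 2492 and 2388 bases. The Arhgef18 peak was 2978 bases wide in continuous E2 and 581, 417 and 797 bases after 56, 72 and 120 h, with a gap at 40 h. The widest 40h-only peak lay inside Nr3c1, the glucocorticoid receptor gene (2810 bases), and was called again after 72 h. Next came a peak on chromosome 15 without a gene within 50000 bases (2214 bases) and those of Cdc14a (2065 bases), Zmym2 (2034 bases) and Tfip11 (1961 bases). The peaks of Cdc14a and Zmym2 were called in all longer withdrawals and not in continuous E2.

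Among shared peaks, the largest loss of width from 24 to 40 h was at Jun, an AP-1 gene, from 3454 to 1633 bases, and no peak was called there in continuous E2 or after 56 h. Epha7 followed with a change from 2946 to 1218 bases, Tsc22d2 from 2656 to 1055 and Ptk2b from 1830 to 391, and a region on chromosome 18 without an assigned gene changed from 2622 to 1226. Gains were smaller. Among the largest were those at Cd180, a B-cell and myeloid surface receptor gene, from 987 to 1581 bases, at the histone gene H3c6 from 668 to 1150, at 2610001J05Rik from 654 to 1052 and at Gab2 from 1348 to 1710.

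Promoters were set apart by the same classes. Of 21263 RefSeq windows of 17492 protein-coding genes, 6566 lay under peaks of both lists, 861 under a 24h-only peak and 592 under a 40h-only peak. The 24h-only windows, of 742 genes, were called in 76.3% of cases in continuous E2 and in 46.2%, 52.7% and 34.5% after 56, 72 and 120 h. The 40h-only windows, of 524 genes, were called in 63.3%, 69.9%, 77.5% and 56.6%. Base composition was alike, with a median GC content of 62.0% for 24h-only, 62.0% for 40h-only and 62.7% for windows under both, against 51.7% for windows under neither. The median number of CG dinucleotides was 22, 22, 24 and 5 in the same order.

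The 9 motifs were searched on both strands of these windows, as plain letter matches. The CCAAT box was in 30.7% of 24h-only, 40.4% of 40h-only and 42.5% of windows under both peaks, against 38.2% of all windows. The E-box CACGTG, bound by MYC and related factors, was in 9.64%, 16.6% and 11.1%, against 7.84% of all. The GC box GGGCGG was in 66.3%, 71.5% and 73.0%, against 46.2% of all. For CCAAT the intervals were 27.7 to 33.8 for 24h-only and 36.5 to 44.4 for 40h-only windows, and for the E-box 7.84 to 11.8 and 13.8 to 19.8. Neither pair overlapped, but windows of one gene can share bases and are not independent. The PU.1-type ETS letters GAGGAAG were in 12.5%, 15.2% and 12.3% (13.6% of all), the RUNX letters TGTGGT in 13.7%, 12.2% and 11% (15% of all), and the C/EBP letters TTGCNNAA in 6.85%, 10.1% and 7.13% (10.2% of all). MEIS TGACAG was in 14.4%, 14.9% and 16.6% (18.7% of all), HOX-PBX TGATNNAT in 2.90%, 3.72% and 2.54% (7.45% of all) and AP-1 TGANTCA in 3.02%, 3.55% and 3.66% (6.99% of all). A letter match is no proof of binding. Motifs in peaks away from promoters were not analysed here.

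Of 1005 RefSeq miRNA hairpins, 9 lay under a 24h-only peak, 6 under a 40h-only peak and 25 under peaks of both lists, counts too small to set against the 23.0% and 11.2% of all peaks. Mir212 and Mir132, a pair of hairpins cut from one primary transcript, lay under one 24h-only peak of 996 bases (chromosome 11, 75172787 to 75173782), which was also called after 56 and 72 h and not in continuous E2 or at 120 h. Their 3′ arms are shown because they share a seed, bases 2 to 8, given in capitals.
miR-212-3p: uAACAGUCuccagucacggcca
miR-132-3p: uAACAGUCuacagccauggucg
The 40h-only peak over Mir7671 (986 bases) is the one assigned to Irf1 above, and the 24h-only peak over Mir6367 (654 bases) that assigned to Ifnar1. Mirlet7i, a hairpin of the let-7 family, lay under a shared peak of 1189 and 1198 bases after 24 and 40 h that was called in all 6 lists. Peak calls at a hairpin give no level of the miRNA.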

How the data were processed

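The ATAC-seq peak lists numbered 6, 1 for each group of 2 libraries. The deposited files hold the chromosome, start and end of each peak, with no score. The submitters' processing notes name BWA, MACS2 2.0, STAR 2.5 and the build mm9, with no role given. How the libraries were combined is not given in the sources used here. Coordinates matched GRCm38 genes, with 58.1% and 64.6% of 24 h and 40 h peaks at a gene boundary against 6.11% and 6.29% after a shift of 1000000 bases.

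From 15003 and 11165 deposited rows, 2529 and 510 duplicates and 16 and 3 intervals over 10000 bases were dropped, and merging of overlapping rows left 11465 peaks covering 9.20 Mb and 9940 covering 7.20 Mb. Overlap meant 1 base or more. Genes were 21887 protein-coding RefSeq entries without strand. Exon and intron positions were not used here. Sequences are RefSeq's (GRCm38.p6), and 17492 genes had a promoter window.

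Named genes were the 12 and 10 with the most 24h-only and 40h-only peaks (ties by summed width), the 5 widest peaks of each class, the 5 largest gains and losses in width, up to 4, 3 and 2 genes per list, list genes with both classes, and 12 fixed genes. Aurkb, B2m, Dnmt3b, Erg, Ezh1, Gapdh, Id3, Il10rb, Itgb2, Junb, Lyl1, Mpo, Runx3, Sdha, Sox4, Spib, Tal1, Tgfbr2 and the miRNAs were named after their values were seen. Some genes that the rule names are not reported here. Members and lists were chosen with earlier results of these data known. Alternatives varied the overlap, list length, peak width, chromosomes, boundary window, assignment distance and promoter rule. Functions were tested on simulated peaks with known classes. Tables were handled with pandas 2.3.3 and numpy 2.4.6 under Python 3.11.15, intervals came from scipy 1.17.1, and matplotlib 3.10.9 drew the figures.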

Additional observations from a re-analysis of the deposited data

Results flagged for a closer look

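The 24 h list held 16 intervals over 10000 bases, used in no comparison, against 14 in continuous E2 and 3 in the 40 h list, which is what set them apart. They measured 69.2 to 81.2 Mb, with 12 on chromosome 19 and 4 on chromosome 18. The last protein-coding gene of chromosome 19 ends at 61.2 Mb, so those 12 are longer than the gene-bearing span of their chromosome. The numbers 16 and 14 describe the files, and no condition is compared by them.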

How the results depend on the processing

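No paired analysis was possible because the 2 libraries of a group are joined in a single list, so leaving out single libraries was not an option either. The lists give no depth or score, so what depth limits is not known. Leaving out chromosomes 18 and 19 kept all 10 summary values inside their main intervals, and dropping intervals over 5000 bases removed nothing further. With lists of equal length the unpartnered shares were 18.7% (24 h) and 18.6% (40 h), the boundary shares 39.2% (24h-only), 42.0% (40h-only) and 69.9% (shared), the median widths 748.5 and 456 bases and the change of shared pairs -94 bases. The cut removes narrow 24 h peaks alone, which leaves their 40 h partners unpartnered. With peaks of at least 400 bases the corresponding values were 24.4%, 10.3%, 35.2%, 59.7%, 70.6%, 643 and 716 bases, and 81.2% of 24h-only regions were called in continuous E2. With 50% reciprocal overlap the unpartnered shares were 24.1% and 12.5%, the median widths 621 bases (24h-only) and 610 bases (40h-only), which turns their order, the E2 share of 24h-only regions 76.3% and the 120 h share of 40h-only regions 42.9%. Boundary windows of 500 bases gave 29.1% for 24h-only and 64.4% for shared peaks, and windows of 2500 bases gave 36.4%, 57.0% and 70.3% for 24h-only, 40h-only and shared peaks. Shared peaks lay at boundaries most often under each of these settings, but at equal length the intervals of the 24h-only (37.0 to 41.4) and 40h-only shares (39.7 to 44.2) overlapped. Assignment within 20000 bases moved 2 of 32 list counts by over 1.5 times and within 100000 bases 4 of 32, among them 24h-only peaks of monocyte genes from 2 to 4. All 18 motif shares stayed inside their main intervals when peaks over the gene start alone were used.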
